A study of Homo sapiens with 12 samples.

Results

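The comparison described here sets HT-29 cells carrying an shRNA against MLKL (shMLKL) beside HT-29 cells carrying a control shRNA against GFP (shGFP), both given only the vehicle DMSO. It was chosen by label: 2 shMLKL libraries and 2 shGFP libraries of the second experiment, 4 of the 12 samples of the series. HT-29 is a human colorectal adenocarcinoma line, and the shRNAs were delivered by lentivirus; whether a line is a pool or a clone is not given in the sources used here. The other libraries used below are 4 of the same lines after 5 h of TBZ (20 ng/mL TNFα, which engages the death receptor TNFR1, 2 µM BV6, which removes inhibitor of apoptosis proteins, and 30 µM zVAD-fmk, which blocks caspases) and 2 single libraries of a first experiment, shMLKL cells and parental HT-29 cells without an shRNA, both under DMSO. Values are FPKM, sequenced fragments scaled by transcript length and library size, made by the authors. Nothing in the labels says that the replicate libraries came from separate cultures, so every p-value reflects the spread between libraries alone, and that spread may be technical. With 1 line for each shRNA, loss of MLKL cannot be told apart from any other difference between the lines.

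MLKL is the pseudokinase that executes necroptosis. When a death receptor, TLR3 or ZBP1 is engaged while caspase-8 is blocked, RIPK1 and RIPK3 assemble into a necrosome, RIPK3 phosphorylates MLKL, and MLKL oligomerises and breaches the plasma membrane. HT-29 cells are a standard model for this death because they express RIPK3, which many carcinoma lines have silenced. Under DMSO alone no death signal is given, so the comparison shows how the lines differ at rest.

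The libraries were similar in depth: on a relative scale in which the deepest of the 8 libraries of the second experiment is 100.0%, the shMLKL libraries under DMSO stood at 90.1 and 95.3% and the shGFP libraries at 100.0 and 92.0%. Genes at 1 FPKM or more numbered 9623 and 9606 in the shMLKL libraries, against 10047 and 10034 in the shGFP libraries. Of 15 colon epithelial markers 10 reached 1 FPKM in a group, among them EPCAM, VIL1 and KRT20, while CDX1, CDX2, GPA33, CDH17 and TFF3 stayed below it. KRT8 and KRT18 count among the 10 only through shMLKL library 2, since every other DMSO library lists them at 0. Leukocyte markers reached it in 4 of 17 cases, with 7 listed at 0 in all 4 libraries, and their summed level was 613 to 664 FPKM in shMLKL cells and 607 to 615 FPKM in shGFP cells, most of it LYZ, which epithelium also makes. Fibroblast and endothelial markers summed to 0.9 and 1.4 FPKM in shMLKL cells, against 2.5 and 2.2 FPKM in shGFP cells. In bulk RNA fewer cells of a type and less RNA per cell cannot be told apart.

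MLKL itself, on chromosome 16 (hg19 74705753 to 74734789, minus strand), was at 0.606 and 0.545 FPKM in shMLKL cells, against 3.95 and 3.89 FPKM in shGFP cells. Expression was thus low in both shMLKL libraries and clear of the shGFP pair, with means of 0.575 ± 0.043 FPKM and 3.92 ± 0.047 FPKM (SD, n = 2 each) and a difference of −1.64 ± 0.096 (SE) in log2(FPKM + 1), at an adjusted p of 9.87e-06. All log2 differences below are on this scale, shMLKL minus shGFP, and understate the change of genes of low level. After 5 h of TBZ the same lines had 0.651 and 0.395 FPKM in shMLKL cells, against 1.98 and 2.03 FPKM in shGFP cells. The first experiment had 0.854 FPKM in shMLKL cells, with a deposited interval of 0.611 to 1.097, against 6.31 FPKM in parental cells, with an interval of 5.65 to 6.97; the FPKM was all on the transcript NM_152649, and the other RefSeq transcript of the gene was listed at 0 in both. The label of the knockdown therefore held in the 5 shMLKL libraries used here. Around the locus, 11 genes were measured with MLKL among them, and 7 were lower and 2 higher in shMLKL cells, or 4 and 4 with library medians set equal. ZFP1, a zinc finger gene, was at 2.53 and 2.54 FPKM in shMLKL cells, against 4.44 and 4.51 FPKM in shGFP cells. RFWD3, a ubiquitin ligase of DNA crosslink repair, was at 8.83 and 9.06 FPKM in shMLKL cells, against 13.2 and 13.3 FPKM in shGFP cells. Their log2 differences of −0.63 and −0.52 were smaller in size than that of MLKL (−1.64).

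Of 10364 genes tested, 6539 (63.1%) differed between the lines under DMSO at an adjusted p under 0.05: 1899 (18.3%) were higher and 4640 (44.8%) lower in shMLKL cells. These shares are the background for every count below. A difference of at least 2-fold was found for 162 genes that were higher (1.56%) and 252 that were lower (2.43%). The median of all genes was −0.16 on the log2 scale, so that most genes sat slightly lower in shMLKL cells. With library medians set equal the split was 3116 higher (30.1%) and 2755 lower (26.6%), so that 53.1% of the calls were higher in place of 1899 of 6539; quantile normalization gave 2795 higher (27.0%) and 3085 lower (29.8%). For each list below the counts after equal medians follow the main ones, to be read against 30.1% and 26.6%.

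**Figure D1:**
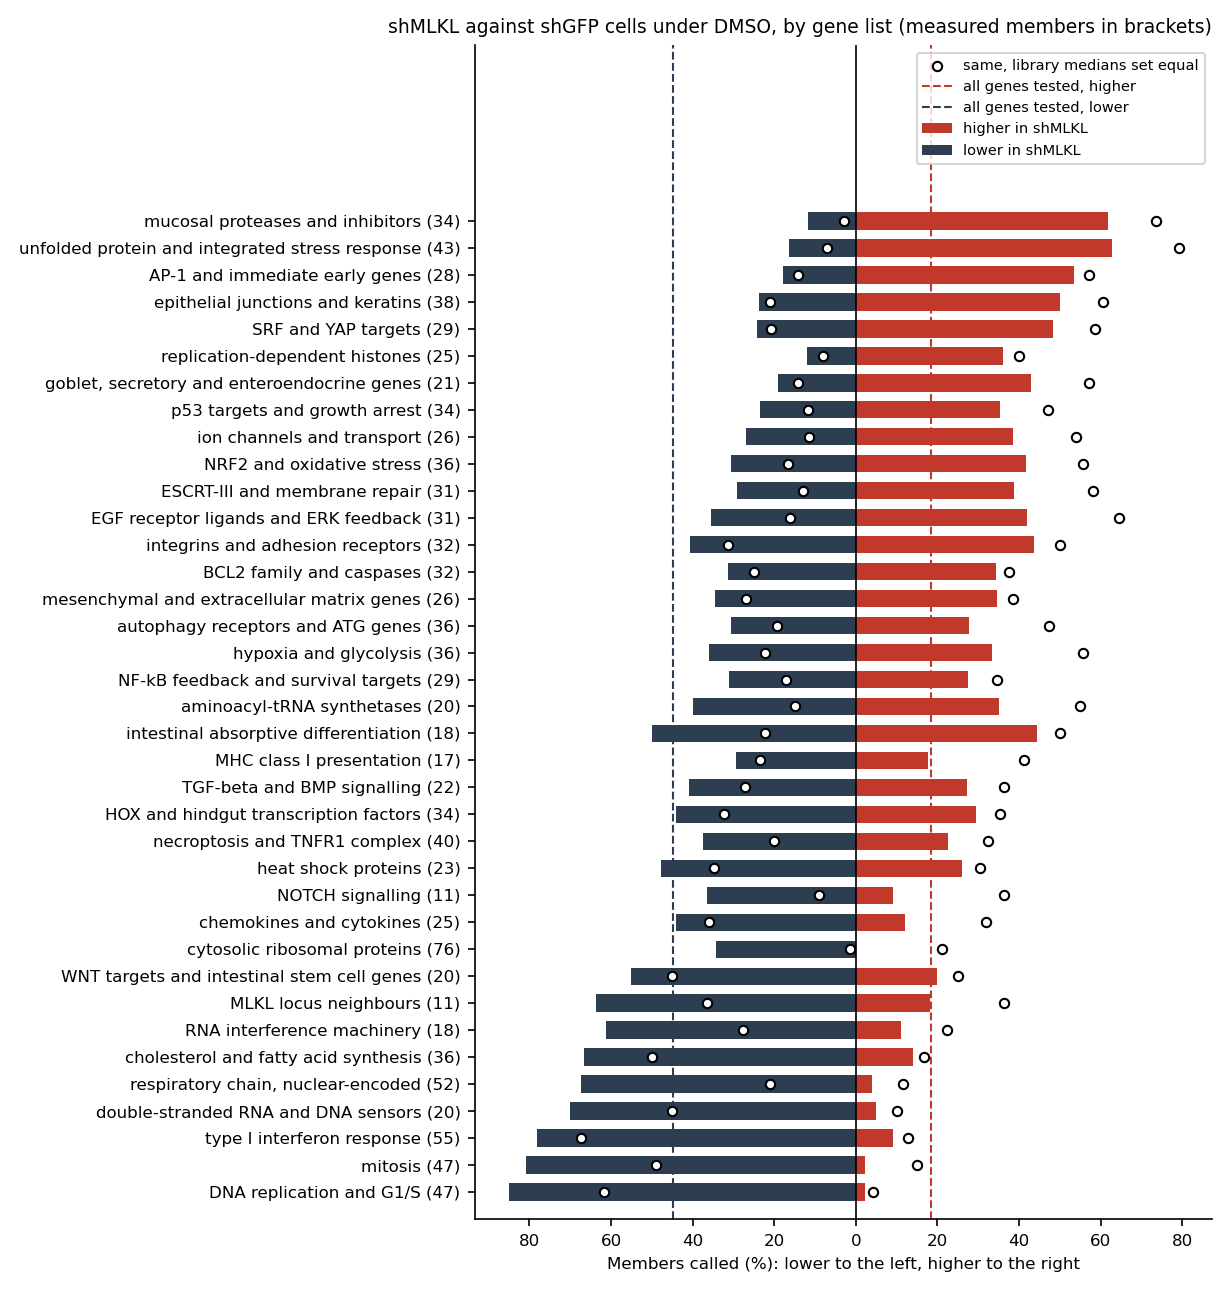
Share of the measured members of each gene list that was higher (bars to the right) or lower (bars to the left) in shMLKL than in shGFP cells under DMSO at an adjusted p under 0.05, for lists with at least 10 measured members; circles give the same shares with library medians set equal and dashed lines the shares among all 10364 genes (18.3% higher, 44.8% lower). DNA replication, mitosis and interferon response genes lie far to the left, and proteases, stress response and AP-1 genes far to the right.

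Interferon response genes were mostly lower in shMLKL cells. Type I interferons signal through a receptor to a transcription factor complex that binds an interferon-stimulated response element (ISRE) and switches on antiviral genes; many tumour lines keep a low tonic output of these genes without added interferon. Of 55 members measured, 43 were lower (78.2%) and 5 higher (9.09%), with a median of −0.56 (−0.16 over all genes); with equal medians 37 were lower and 7 higher. Promoters of this list that a RefSeq table holds (45 of 55 genes, GRCh38.p14, 250 bases before to 50 after the start) were searched for the ISRE core GAAANNGAAA on either strand (TTTCNNTTTC on the other). The core was in 29 of 45 (64.4%) of them, against 333 of 8557 (3.89%) of the promoters of all tested genes with an entry and 1195 of 27305 (4.38%) of all promoters in the table, counting a gene with several starts once. Among members called lower it was in 24 of 36 (66.7%), and among the other measured members in 5 of 9 (55.6%). A match describes the letters and is no evidence of binding. The last 170 bases before the start are shown for 3 genes that were low in shMLKL cells and for 1 that was high, chosen after their values were seen because each holds the core, which is in capitals.
IFI44L: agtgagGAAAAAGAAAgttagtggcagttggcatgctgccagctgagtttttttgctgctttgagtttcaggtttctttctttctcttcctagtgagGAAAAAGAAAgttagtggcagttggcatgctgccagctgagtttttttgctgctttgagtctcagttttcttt
IFI6: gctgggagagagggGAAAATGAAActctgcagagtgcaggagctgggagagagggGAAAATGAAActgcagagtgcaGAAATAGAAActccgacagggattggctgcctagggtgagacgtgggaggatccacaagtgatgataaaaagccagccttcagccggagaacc
IFIT1: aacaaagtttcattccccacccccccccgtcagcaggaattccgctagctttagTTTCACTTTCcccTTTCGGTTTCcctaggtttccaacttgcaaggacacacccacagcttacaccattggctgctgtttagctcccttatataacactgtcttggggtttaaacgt
ISG20: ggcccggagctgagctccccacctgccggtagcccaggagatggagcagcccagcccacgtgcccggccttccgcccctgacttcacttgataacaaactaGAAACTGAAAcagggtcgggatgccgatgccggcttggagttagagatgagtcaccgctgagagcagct
The windows are chr1:78620278-78620447 (plus strand) for IFI44L, chr1:27672193-27672362 (minus strand) for IFI6, chr10:89392453-89392622 (plus strand) for IFIT1 and chr15:88638846-88639015 (plus strand) for ISG20. IFI44L and IFIT1 hold 2 matches each, IFI6 holds 3 and ISG20 holds 1, which begins 69 bases before the start.

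IFI44L, an interferon-induced gene of the IFI44 family, was at 1.19 and 1.204 FPKM in shMLKL cells, against 9.704 and 10.5 FPKM in shGFP cells. The lines stood well apart, and its log2 difference was −2.34 ± 0.08 (SE, adjusted p = 1.69e-06). IFI6, a mitochondrial and endoplasmic reticulum antiviral protein, was at 19.8 and 17.95 FPKM in shMLKL cells, against 58.3 and 68.1 FPKM in shGFP cells. IFIT1, which binds viral RNA lacking cap methylation, was at 8.87 and 8.96 FPKM in shMLKL cells, against 20.5 and 18.6 FPKM in shGFP cells. Both fell, by 1.69 and 1.05 on the log2 scale. OAS2, an oligoadenylate synthetase that starts RNase L decay of RNA, was at 8.98 and 9.14 FPKM in shMLKL cells, against 39.1 and 41.8 FPKM in shGFP cells. The OAS2 values of the lines stood far apart, at a log2 difference of −2.04 ± 0.088 (SE, adjusted p = 2.99e-06). UBE2L6, the E2 enzyme that conjugates ISG15 to proteins, was at 3.41 and 2.11 FPKM in shMLKL cells, against 10.9 and 12.4 FPKM in shGFP cells. IFI27, a mitochondrial interferon-induced protein, was at 98.96 and 80.99 FPKM in shMLKL cells, against 227 and 244 FPKM in shGFP cells, the largest absolute difference of the list. MX1, a GTPase that blocks influenza nucleocapsids, was at 13.4 and 12.4 FPKM in shMLKL cells, against 26.2 and 28.9 FPKM in shGFP cells. Genes of the signalling complex were lower as well: STAT2 was at 2.82 and 2.77 FPKM in shMLKL cells, against 3.96 and 4.32 FPKM in shGFP cells and IRF9 at 17.7 and 16.4 FPKM in shMLKL cells, against 22.8 and 21.6 FPKM in shGFP cells. Both differences were smaller than those of the 7 genes named before them, at −0.44 and −0.36 on the log2 scale.

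Not all members of the list were lower. ISG20, a 3′ exonuclease of single-stranded RNA, was at 10.4 and 12.96 FPKM in shMLKL cells, against 2.78 and 2.36 FPKM in shGFP cells. That was 1.83 ± 0.11 (SE, adjusted p = 1.11e-05) on the log2 scale, the largest rise of the list. IRF1, a transcription factor induced by interferon γ and by NF-kB, was at 13.8 and 12.8 FPKM in shMLKL cells, against 6.51 and 6.58 FPKM in shGFP cells. SAMD9, a translation repressor that restricts poxviruses, was at 89.9 and 89.8 FPKM in shMLKL cells, against 52.9 and 55.3 FPKM in shGFP cells. The other higher members were TRIM25 and GBP3. RSAD2, IFIT2, IFIH1, IFI16, IFI35, IFITM2 and MX2 did not pass the test. Of the 55 members, 31 were lower and 13 higher under TBZ, where 31.0% of all genes were lower and 20.7% higher; 29 were lower in both conditions, and 6 were called in opposite directions. IFIT3 was one of these: its line difference was −0.56 under DMSO and 0.56 under TBZ. In the first experiment, where 52 members reached 1 FPKM in a library, 38 lay above 0 and 14 below, while 55.4% of all genes lay above 0 and 44.6% below. IFI44L kept its sign there but was listed at 0 in the shMLKL library, against 1.35 FPKM in parental cells, whereas OAS2 had a log2 difference of 1.39.

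**Figure D2:**
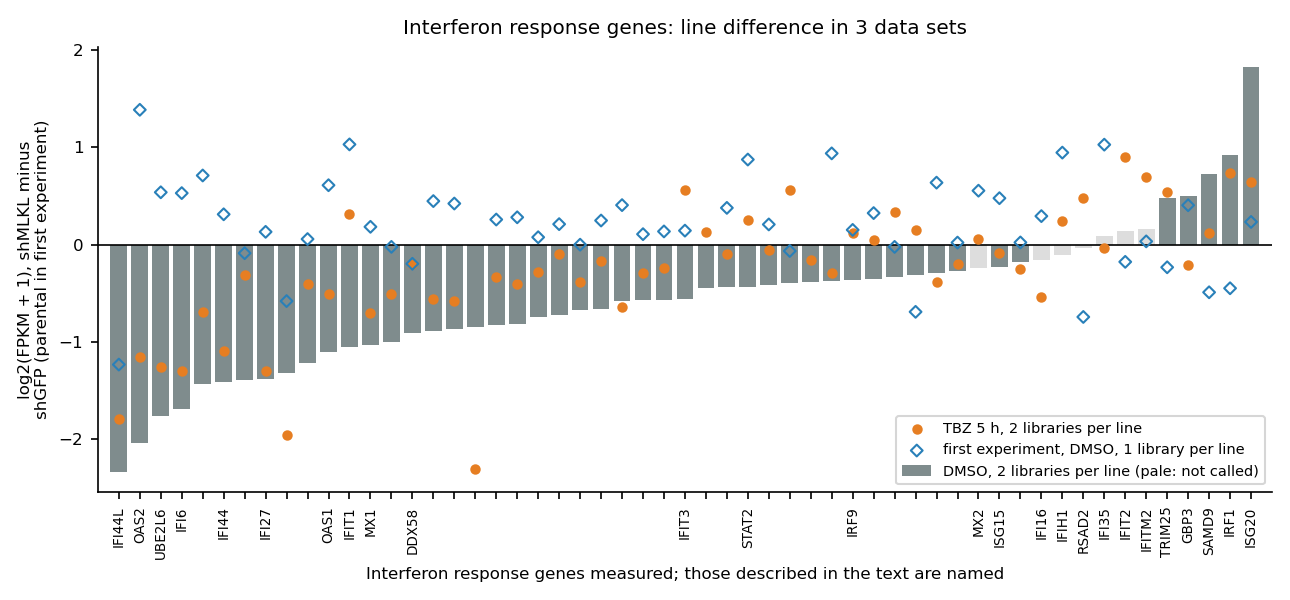
Line difference of the 55 measured interferon response genes, in log2(FPKM + 1), ordered by the difference under DMSO, with the genes described in the text named on the axis: bars give shMLKL minus shGFP under DMSO (pale where not called), filled circles the same under TBZ for 5 h, and open diamonds shMLKL minus parental cells in the single libraries of the first experiment, for genes that reach 1 FPKM there. Bars fall below 0 for 43 called genes, while 38 of 52 diamonds lie above 0.

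Sensors of foreign RNA and DNA, which trigger interferon production, were mostly lower too: 14 of 20 measured members (70.0%) were lower and 1 higher, or 9 and 2 with equal medians. The list shares OAS2, OAS1 and other members with the interferon list. DDX58, which encodes RIG-I, was at 13.5 and 12.8 FPKM in shMLKL cells, against 24.5 and 26.7 FPKM in shGFP cells. TMEM173, which encodes STING, the adaptor of cytosolic DNA sensing, was at 5.33 and 3.98 FPKM in shMLKL cells, against 10.6 and 9.74 FPKM in shGFP cells. TLR3, the endosomal receptor of double-stranded RNA, was at 0.59 and 0.681 FPKM in shMLKL cells, against 1.67 and 1.54 FPKM in shGFP cells. The log2 differences of these genes were −0.91, −0.99 and −0.67. The RNA interference machinery, through which the shRNAs act, had 11 of 18 members lower and 2 higher, or 5 and 4 with equal medians. DROSHA, which crops primary microRNAs, was at 10.7 and 10.3 FPKM in shMLKL cells, against 17.2 and 17.4 FPKM in shGFP cells. AGO1, an Argonaute protein, was at 2.54 and 2.45 FPKM in shMLKL cells, against 4.36 and 4.18 FPKM in shGFP cells.

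Necroptosis genes other than MLKL showed no common direction. Of 40 members measured, MLKL included, 15 were lower (37.5%) and 9 higher (22.5%), close to the shares among all genes; with equal medians 8 were lower and 13 higher. RIPK1, the scaffold kinase of TNF receptor signalling, was at 8.66 and 9.07 FPKM in shMLKL cells, against 9.53 and 9.03 FPKM in shGFP cells. RIPK3, the kinase that phosphorylates MLKL, was at 2.42 and 2.799 FPKM in shMLKL cells, against 3.09 and 2.33 FPKM in shGFP cells. FADD, the adaptor that recruits caspase-8, was at 12.5 and 12.2 FPKM in shMLKL cells, against 11.8 and 13.4 FPKM in shGFP cells. None of these 3 passed the test: their adjusted p-values were 0.371, 0.799 and 0.84, and the values of the lines overlapped in each. CASP8, the protease that cleaves RIPK1 and holds necroptosis back, was at 19.2 and 18.9 FPKM in shMLKL cells, against 14.7 and 16.3 FPKM in shGFP cells. TNFRSF1A, the receptor of TNF through which TBZ acts, was at 24.7 and 23.8 FPKM in shMLKL cells, against 18.7 and 20.5 FPKM in shGFP cells. Both rose slightly, by 0.28 ± 0.063 and 0.2953 ± 0.072 (SE) on the log2 scale, at adjusted p-values of 0.00553 and 0.00848; without shGFP library 1 the second was no longer called (adjusted p = 0.0623). TLR3, which can start necroptosis through TRIF, fell by 0.67. ZBP1, a nucleic acid sensor that binds RIPK3, was below the filter of 1 FPKM, at 0.424 and 0.172 FPKM in shMLKL cells, against 0.733 and 0.646 FPKM in shGFP cells.

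**Figure D3:**
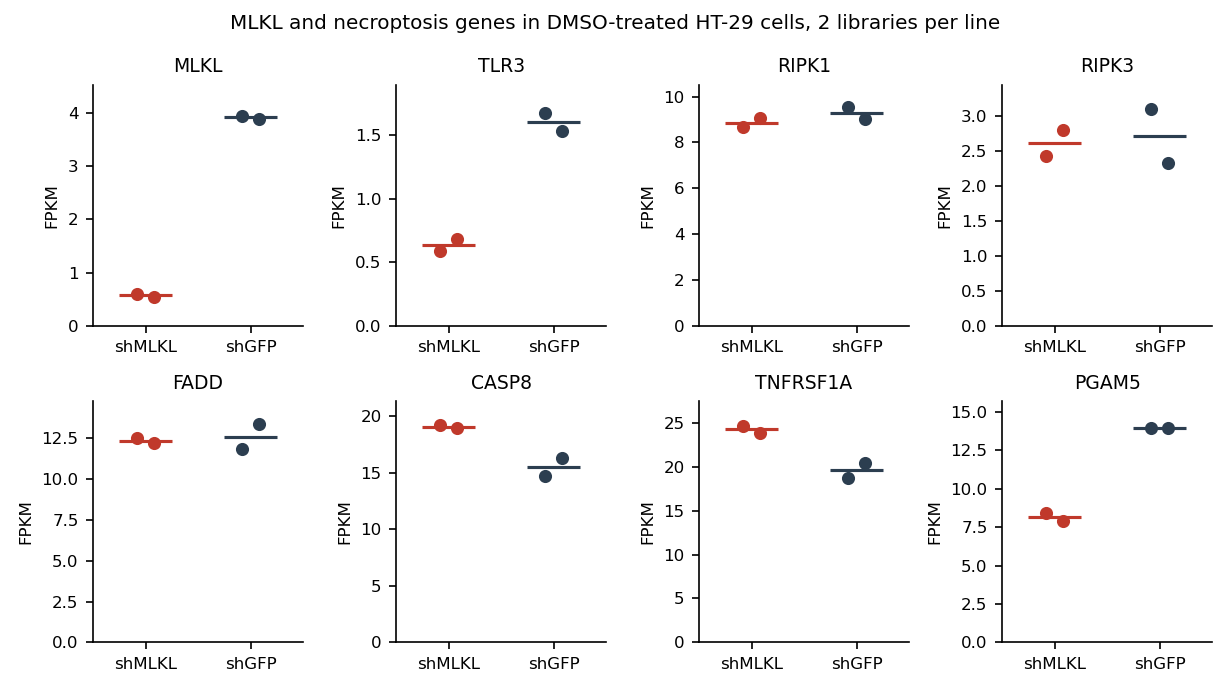
FPKM of MLKL and 7 other necroptosis genes in the 2 shMLKL libraries (left) and the 2 shGFP libraries (right) under DMSO; points are libraries and lines are group means. MLKL, TLR3 and PGAM5 are lower in shMLKL cells, CASP8 and TNFRSF1A slightly higher, and the lines overlap for RIPK1, RIPK3 and FADD.

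Other regulators of the pathway went both ways, and the first 3 named here are the largest called differences of the list after MLKL. IKBKE, a kinase related to TBK1 that phosphorylates RIPK1, was at 0.701 and 0.649 FPKM in shMLKL cells, against 2.17 and 2.22 FPKM in shGFP cells. PGAM5, a mitochondrial phosphatase once placed downstream of the necrosome, was at 8.44 and 7.87 FPKM in shMLKL cells, against 13.97 and 13.96 FPKM in shGFP cells. RBCK1, which encodes the LUBAC subunit HOIL-1, was at 21.7 and 23.02 FPKM in shMLKL cells, against 12.6 and 14.1 FPKM in shGFP cells, whereas SHARPIN, another subunit of the same linear ubiquitin ligase, was at 3.76 and 4.15 FPKM in shMLKL cells, against 5.45 and 5.73 FPKM in shGFP cells. The subunits of this ligase thus moved in opposite directions (0.7002 for RBCK1 and −0.41 for SHARPIN). Members of the ESCRT-III and membrane repair list, which reseals membranes damaged by MLKL, were higher in 12 and lower in 9 of 31 cases, or 18 and 4 with equal medians. The calcium-binding annexins ANXA1 and ANXA5 led the rises: ANXA1 was at 546 and 597 FPKM in shMLKL cells, against 298 and 307 FPKM in shGFP cells, and ANXA5 at 377 and 397 FPKM in shMLKL cells, against 233 and 229.6 FPKM in shGFP cells. FLOT2, a flotillin of lipid rafts that removes MLKL from membranes, was at 9.14 and 8.52 FPKM in shMLKL cells, against 18.9 and 18.9 FPKM in shGFP cells. Among BCL2 family members and caspases 11 of 32 were higher and 10 lower. MCL1, an anti-apoptotic protein of short half-life, was at 116 and 122 FPKM in shMLKL cells, against 73.5 and 77.4 FPKM in shGFP cells. BID, the link between caspase-8 and mitochondria, was at 12.2 and 11.9 FPKM in shMLKL cells, against 20.1 and 20.4 FPKM in shGFP cells. GSDMB, a pore-forming gasdermin, was at 2.52 and 2.43 FPKM in shMLKL cells, against 6.42 and 5.701 FPKM in shGFP cells.

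DNA replication genes were lower in shMLKL cells almost throughout. The list, made of the MCM helicase, the GINS complex, replicative polymerases, clamp loaders and G1/S cyclins, had 40 of 47 members lower (85.1%) and 1 higher, with a median of −0.46; with equal medians 29 were lower and 2 higher. All 6 subunits of the MCM2-7 helicase that licenses origins were lower, with log2 differences between −0.88 for MCM6 and −0.66 for MCM5. MCM2 was at 8.87 and 8.295 FPKM in shMLKL cells, against 15.9 and 16.1 FPKM in shGFP cells. CCNE2, the G1/S cyclin E2, was at 2.53 and 3.07 FPKM in shMLKL cells, against 7.11 and 6.59 FPKM in shGFP cells. POLE2, the accessory subunit of polymerase epsilon, was at 0.955 and 1.297 FPKM in shMLKL cells, against 3.77 and 3.71 FPKM in shGFP cells, and GINS2, of the helicase complex, at 2.67 and 3.19 FPKM in shMLKL cells, against 7.17 and 6.53 FPKM in shGFP cells. CCNE2, POLE2 and GINS2 were picked for large called differences, so the distance between their groups follows from the choice. CDC6, which loads the MCM helicase, was the member that was higher, at 27.4 and 26.9 FPKM in shMLKL cells, against 19.6 and 19.9 FPKM in shGFP cells. RFC4, a clamp loader subunit, was listed at 0 in both shMLKL libraries, against 19.8 and 19.0 FPKM in shGFP cells, and is taken up with the other genes listed at 0. Mitosis genes had 38 of 47 members lower (80.9%) and 1 higher, with a median of −0.34; with equal medians 23 were lower and 7 higher. HMMR, a spindle protein, was at 6.58 and 7.34 FPKM in shMLKL cells, against 17.5 and 17.01 FPKM in shGFP cells. KIF20A, a kinesin of cytokinesis, was at 4.23 and 4.43 FPKM in shMLKL cells, against 9.17 and 8.48 FPKM in shGFP cells. PTTG1, which encodes securin, was at 56.5 and 52.3 FPKM in shMLKL cells, against 93.6 and 82.7 FPKM in shGFP cells. MKI67, the proliferation marker Ki-67, was at 39.8 and 42.7 FPKM in shMLKL cells, against 57.9 and 53.99 FPKM in shGFP cells. These differences were modest for most members, such as TOP2A (−0.2047) and UBE2C (−0.21). Under TBZ 22 replication genes were lower and 5 higher, while mitosis genes split into 8 lower and 15 higher, so the mitotic list did not keep its direction. In the first experiment 30 of 43 replication genes lay above 0 and 36 of 47 mitosis genes below it.

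Growth arrest genes showed the opposite tendency in part. The list of p53 targets and growth arrest genes had 12 of 34 members higher and 8 lower, or 16 and 4 with equal medians. CDKN2B, the CDK4 and CDK6 inhibitor p15, was at 24.4 and 24.9 FPKM in shMLKL cells, against 5.06 and 5.92 FPKM in shGFP cells. CDKN1A, the CDK inhibitor p21, was at 34.01 and 34.3 FPKM in shMLKL cells, against 12.6 and 14.5 FPKM in shGFP cells. GDF15, a stress-induced hormone of the TGF-beta family, was at 174 and 169 FPKM in shMLKL cells, against 64.2 and 69.7 FPKM in shGFP cells. All 3 rose, by 1.98, 1.27 and 1.35 on the log2 scale. Other p53 targets were lower, among them FAS, the death receptor, at 3.14 and 3.33 FPKM in shMLKL cells, against 6.25 and 6.904 FPKM in shGFP cells, and SESN1, an antioxidant sestrin, at 1.18 and 1.21 FPKM in shMLKL cells, against 4.08 and 3.87 FPKM in shGFP cells. The rises were not kept under TBZ: the line difference was 0.10 for CDKN2B (not called), −0.30 for CDKN1A and −0.39 for GDF15. Of the whole list 7 were then higher and 15 lower, with 7 opposite calls. In the first experiment 18 of 31 members lay above 0, near the share of all genes (55.4%). GDF15 lay at 0.22 there, CDKN2B at −0.60 and CDKN1A at −0.98. Replication-dependent histone genes had 9 of 25 members higher and 3 lower, or 10 and 2 with equal medians; libraries were poly-A selected, and these genes give mostly non-polyadenylated RNA. HIST1H2BK, which also gives a polyadenylated RNA, was at 8.17 and 8.46 FPKM in shMLKL cells, against 20.3 and 25.98 FPKM in shGFP cells.

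Genes of lipid synthesis were lower. The list of cholesterol and fatty acid synthesis genes, most of which SREBP transcription factors switch on, had 24 of 36 members lower (66.7%) and 5 higher, with a median of −0.34; with equal medians 18 were lower and 6 higher. FASN, the fatty acid synthase, was at 3.602 and 3.397 FPKM in shMLKL cells, against 9.43 and 9.76 FPKM in shGFP cells. ACSS2, which makes acetyl-CoA from acetate, was at 1.497 and 1.84 FPKM in shMLKL cells, against 4.78 and 5.26 FPKM in shGFP cells. FASN fell by 1.24 and ACSS2 by 1.18 on the log2 scale. TM7SF2, a sterol reductase, was at 0 and 2.53 FPKM in shMLKL cells, against 4.92 and 4.62 FPKM in shGFP cells, and its call (adjusted p = 0.0205) did not hold without either shGFP library. Under TBZ 27 members were lower and 4 higher. In the first experiment 19 of 33 lay above 0, near the share of all genes (55.4%).

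Respiratory chain and ribosomal genes gave counts that depended on the scaling, and for the ribosomal genes the direction did too. Nuclear-encoded subunits of the respiratory chain had 35 of 52 members lower (67.3%) and 2 higher, with a median of −0.23; with equal medians 11 were lower and 6 higher, while quantile normalization gave 32 lower and 2 higher. NDUFB10, a subunit of complex I, was at 13.9 and 13.4 FPKM in shMLKL cells, against 33.8 and 32.01 FPKM in shGFP cells, and NDUFA2, another, at 5.69 and 3.76 FPKM in shMLKL cells, against 13.8 and 13.9 FPKM in shGFP cells. Cytosolic ribosomal proteins had 26 of 76 members lower (34.2%) and 0 higher; with equal medians 1 was lower and 16 were higher, and with quantile normalization 40 were lower and 0 higher. RPS26 of the small subunit was at 48.2 and 46.9 FPKM in shMLKL cells, against 60.1 and 57.8 FPKM in shGFP cells. RPL6, of the large subunit, was at 349 and 347 FPKM in shMLKL cells, against 427 and 413 FPKM in shGFP cells, and its call (adjusted p = 0.0188) was lost when any 1 of the 4 libraries was left out and with equal medians. Aminoacyl-tRNA synthetases split into 7 higher and 8 lower of 20, or 11 and 3 with equal medians, with WARS, the interferon-inducible enzyme for tryptophan, highest, at 157 and 155 FPKM in shMLKL cells, against 79.6 and 89.5 FPKM in shGFP cells.

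The 12 genes that the naming rule picked as the largest falls were all listed at 0 in both shMLKL libraries, and 2 of the 12 largest rises, NIT1 and CYB5R3, were listed at 0 in both shGFP libraries. RUVBL1, an AAA+ ATPase of chromatin remodellers, was listed at 0 in both shMLKL libraries, against 41.4 and 39.5 FPKM in shGFP cells. BRI3 was listed at 0 in both shMLKL libraries, against 35.9 and 33.2 FPKM in shGFP cells. RPL36A, a ribosomal protein, was listed at 0 in both shMLKL libraries, against 52.4 and 46.3 FPKM in shGFP cells. Values of exactly 0 for genes that every cell uses can be failed estimates, so no fold is given for any of them. The other largest falls were RFC4, TGIF2-C20orf24, DUS4L, FAM118B, IFT80, SPA17, NAB2, POLR2M and IFT74. NIT1, an amidase, was at 10.1 and 8.35 FPKM in shMLKL cells and listed at 0 in both shGFP libraries. The calls of NIT1 and CYB5R3 were lost when any 1 of the 4 libraries was left out, and those of RPL36A and SPA17 without shGFP library 1. Of the 12, 9 were also listed at 0 in both shMLKL libraries under TBZ, and 3 in all 4 TBZ libraries. In all, 177 tested genes were listed at 0 in at least 1 of the 8 libraries, and 25 called genes were at 0 in both shMLKL libraries under DMSO and 4 in both shGFP libraries. KRT8 and KRT18, the main simple-epithelial keratins, were listed at 0 in 3 of the 4 DMSO libraries and so say nothing here. Leaving out every gene at 0 in any library gave 10187 tested genes, of which 1910 were higher and 4682 lower. At 2-fold or more 157 of these were higher and 220 lower.

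A second set of leading genes was chosen after the values were seen. It took the 12 largest changes each way among called genes above 0 in all 4 DMSO libraries. These genes also had to reach 5 FPKM in a group mean, with groups that do not overlap. Among the falls were ion transport and signalling genes of epithelium. GABRP, the pi subunit of the GABA-A receptor, was at 0.958 and 0.66 FPKM in shMLKL cells, against 10.2 and 9.94 FPKM in shGFP cells. CFTR, the apical chloride channel of intestinal epithelium, was at 0.93 and 0.84 FPKM in shMLKL cells, against 9.94 and 8.96 FPKM in shGFP cells. PPP1R1B, the phosphatase inhibitor DARPP-32, was at 0.573 and 0.531 FPKM in shMLKL cells, against 5.98 and 6.64 FPKM in shGFP cells. Expression of all 3 was near or below 1 FPKM in shMLKL cells, and log2 differences were −2.62 ± 0.098, −2.47 ± 0.085 and −2.23 ± 0.082 (SE). MYB, a transcription factor of colonic progenitors, was at 1.37 and 1.26 FPKM in shMLKL cells, against 9.18 and 8.05 FPKM in shGFP cells. NOX1, the superoxide-producing oxidase of colonic epithelium, was at 0.8 and 0.476 FPKM in shMLKL cells, against 5.47 and 5.61 FPKM in shGFP cells. SOSTDC1, an extracellular inhibitor of BMP and WNT, was at 0.596 and 0.563 FPKM in shMLKL cells, against 4.67 and 5.47 FPKM in shGFP cells. The aldehyde dehydrogenase ALDH3A1 and the aldo-keto reductase AKR1B10 belonged here too: AKR1B10 was at 4.01 and 3.43 FPKM in shMLKL cells, against 17.3 and 16.5 FPKM in shGFP cells, and ALDH3A1 at 0.198 and 0.782 FPKM in shMLKL cells, against 5.67 and 5.46 FPKM in shGFP cells. CPNE2, a calcium-binding copine, was at 1.31 and 0.749 FPKM in shMLKL cells, against 8.13 and 7.51 FPKM in shGFP cells. IFI44L, OAS2 and the chemokine gene CXCL10 completed the set. The log2 difference of the first experiment was above 0 for OAS2 (1.39), MYB (0.90), AKR1B10 (0.69), NOX1 (0.58) and CFTR (0.56). It was also above 0 for SOSTDC1 (0.36), GABRP (0.32), ALDH3A1 (0.25) and CXCL10 (0.23). It was below 0 for CPNE2 (−0.09), PPP1R1B (−0.05) and IFI44L (−1.24), which was listed at 0 in the shMLKL library there.

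Among the rises the largest was C3orf52, a membrane protein also called TTMP, at 18.1 and 21.5 FPKM in shMLKL cells, against 2.76 and 3.19 FPKM in shGFP cells. AKAP12, a scaffold for protein kinase A, was at 8.095 and 10.9 FPKM in shMLKL cells, against 1.07 and 1.46 FPKM in shGFP cells. SCEL, the cornified envelope precursor sciellin, was at 82.03 and 91.6 FPKM in shMLKL cells, against 18.2 and 21.1 FPKM in shGFP cells. The log2 differences of these 3 genes were 2.38 ± 0.12, 2.2 ± 0.14 and 2.09 ± 0.076 (SE). HSPA13, a microsomal chaperone of the HSP70 family, was at 28.3 and 28.6 FPKM in shMLKL cells, against 5.49 and 6.97 FPKM in shGFP cells. GABARAPL1, an ATG8 protein of autophagosomes, was at 26.8 and 28.1 FPKM in shMLKL cells, against 6.83 and 5.91 FPKM in shGFP cells. DKK1, a secreted WNT inhibitor, was at 27.05 and 25.8 FPKM in shMLKL cells, against 5.76 and 6.33 FPKM in shGFP cells. NRP1, a co-receptor of semaphorins and VEGF, was at 21.2 and 25.2 FPKM in shMLKL cells, against 5.21 and 5.72 FPKM in shGFP cells, and ALCAM, an adhesion molecule of the immunoglobulin family, at 9.46 and 10.4 FPKM in shMLKL cells, against 1.91 and 1.44 FPKM in shGFP cells. TMC5, a transmembrane channel-like protein, was at 73.3 and 77.3 FPKM in shMLKL cells, against 18.7 and 19.7 FPKM in shGFP cells, and SDCBP2, which encodes syntenin-2, at 21.2 and 19.3 FPKM in shMLKL cells, against 4.397 and 4.82 FPKM in shGFP cells. SPINK1, a trypsin inhibitor, and CDKN2B were the remaining members. In the first experiment the log2 difference was below 0 for C3orf52 (−0.94), AKAP12 (−1.24), SCEL (−1.04), TMC5 (−1.06), NRP1 (−0.85), CDKN2B (−0.60) and DKK1 (−0.50). It was above 0 for HSPA13 (0.71), ALCAM (0.37), GABARAPL1 (0.24) and SPINK1 (0.22), and SDCBP2 was listed at 0 in both libraries there.

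**Figure D4:**
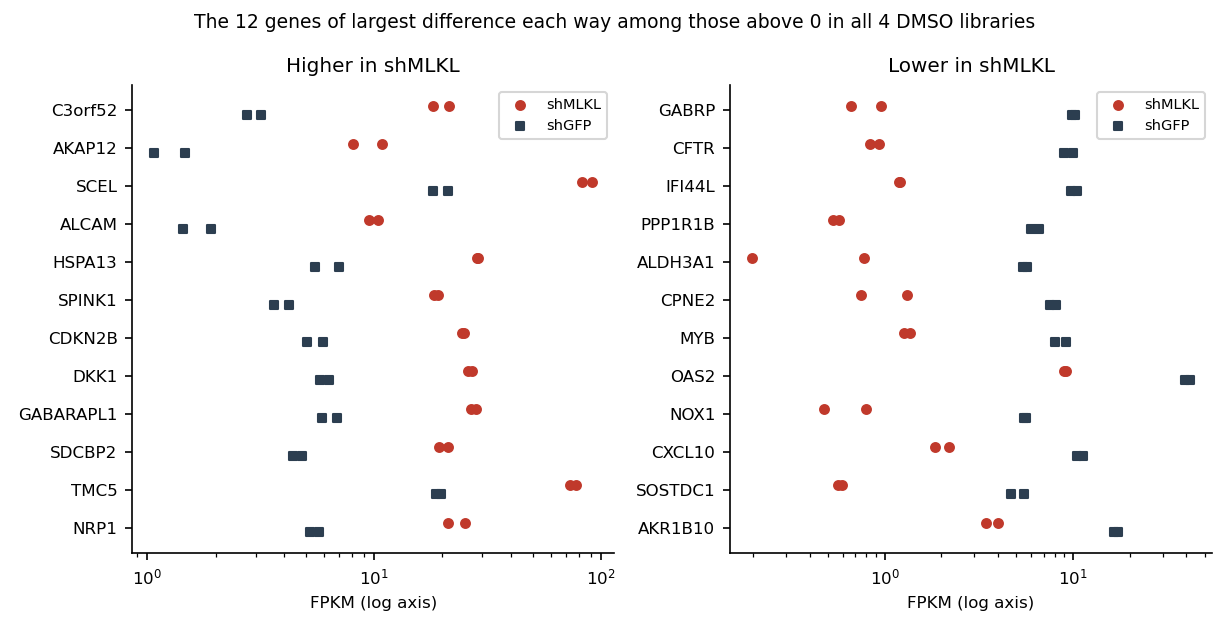
FPKM, on a log axis, of the 12 genes with the largest rise (left panel) and the 12 with the largest fall (right panel) in shMLKL cells among genes above 0 in all 4 DMSO libraries; circles are the 2 shMLKL libraries and squares the 2 shGFP libraries. The choice of the 24 genes requires that the lines do not overlap; GABRP, CFTR and PPP1R1B lie near or below 1 FPKM in shMLKL cells.

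Immediate early and AP-1 genes were higher in shMLKL cells at rest. This list holds the FOS, JUN, EGR, KLF and NR4A transcription factors that growth factors and stress switch on within minutes. Of 28 measured members 15 were higher (53.6%) and 5 lower (17.9%), with a median of 0.33; with equal medians 16 were higher and 4 lower. JUN, the central AP-1 subunit, was at 36.9 and 35.7 FPKM in shMLKL cells, against 11.02 and 12.5 FPKM in shGFP cells. FOSL1, the subunit FRA-1, was at 33.5 and 33.8 FPKM in shMLKL cells, against 13.8 and 17.003 FPKM in shGFP cells. ATF3, a stress-induced partner of JUN, was at 30.3 and 33.9 FPKM in shMLKL cells, against 14.9 and 15.6 FPKM in shGFP cells. CYR61, a matricellular target of YAP and SRF, was at 6.204 and 6.98 FPKM in shMLKL cells, against 1.82 and 1.54 FPKM in shGFP cells, and GEM, a small GTPase, at 3.49 and 4.69 FPKM in shMLKL cells, against 1.02 and 1.301 FPKM in shGFP cells. The log2 differences were 1.55, 1.09, 1.02, 1.503 and 1.23 in this order. These members were picked for large called differences, so the distance between the groups follows from the choice. KLF6 was at 54.3 and 55.3 FPKM in shMLKL cells, against 26.4 and 30.5 FPKM in shGFP cells. FOS itself did not pass the test, at 4.63 and 4.41 FPKM in shMLKL cells, against 4.15 and 5.18 FPKM in shGFP cells, and neither did JUNB, EGR2, NR4A1 or NR4A2. SRF, the factor that drives many of these genes, was lower, at 2.35 and 2.44 FPKM in shMLKL cells, against 5.52 and 5.24 FPKM in shGFP cells, as was EGR1, at 3.97 and 4.67 FPKM in shMLKL cells, against 6.19 and 7.48 FPKM in shGFP cells. Under TBZ the picture turned round: 26 members were lower in shMLKL than in shGFP cells and 0 higher, and 13 genes were called in opposite directions in the 2 conditions. JUN was at 103 and 101 FPKM in shMLKL cells, against 162 and 154 FPKM in shGFP cells after TBZ. The change of the line difference between the conditions was itself past the threshold for 26 of 28 members, against 22.3% of all genes, a share that was smaller without any 1 DMSO library. In the first experiment, at rest, 5 of 25 members lay above 0 and 20 below.

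Feedback genes of the EGF receptor and ERK pathway went both ways. ERK activity induces dual-specificity phosphatases (DUSP), Sprouty proteins and ETV factors that restrain it. Of 31 members 13 were higher (41.9%) and 11 lower (35.5%), or 20 and 5 with equal medians. DUSP5, a nuclear phosphatase of ERK, was at 18.2 and 19.3 FPKM in shMLKL cells, against 4.64 and 5.43 FPKM in shGFP cells. DUSP1, which dephosphorylates JNK and p38, was at 10.6 and 11.7 FPKM in shMLKL cells, against 2.86 and 3.43 FPKM in shGFP cells. The EGF receptor ligand AREG, amphiregulin, was at 247 and 231 FPKM in shMLKL cells, against 103 and 113 FPKM in shGFP cells, and EREG, epiregulin, at 324 and 330.0 FPKM in shMLKL cells, against 169.6 and 190.3 FPKM in shGFP cells. EGFR, their receptor, was at 31.8 and 34.8 FPKM in shMLKL cells, against 17.8 and 18.5 FPKM in shGFP cells. All 5 rose, DUSP5 by 1.72 ± 0.073 and AREG by 1.14 ± 0.055 (SE) on the log2 scale. SPRY1, SPRY2, SPRY4, ETV1, ETV4 and ETV5 were lower, by 0.31 to 0.44 on the log2 scale, but with equal medians SPRY4 alone of these 6 was still called. LRIG1, a membrane protein that degrades EGFR, was at 2.26 and 2.29 FPKM in shMLKL cells, against 5.97 and 5.89 FPKM in shGFP cells, and ERBB2, another receptor of the family, at 9.18 and 9.71 FPKM in shMLKL cells, against 14.3 and 14.2 FPKM in shGFP cells. DUSP1 and DUSP5 reversed under TBZ, at line differences of −1.78 and −0.42, and AREG was not called there, at 0.08. Of the list 4 were higher and 17 lower under TBZ, with 5 opposite calls. SRF and YAP targets had 14 of 29 members higher and 7 lower, or 17 and 6 with equal medians, with ACTG1, γ-actin, at 974 and 1018 FPKM in shMLKL cells, against 346 and 376 FPKM in shGFP cells; under TBZ 3 were higher and 19 lower.

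Unfolded protein and integrated stress response genes were higher. Misfolded protein in the endoplasmic reticulum activates IRE1, PERK and ATF6, and PERK leads to ATF4 and CHOP, which raise chaperones, amino acid genes and feedback factors. Of 43 measured members 27 were higher (62.8%) and 7 lower (16.3%), with a median of 0.28; with equal medians 34 were higher and 3 lower. HSPA5, the chaperone BiP, was at 456 and 475 FPKM in shMLKL cells, against 197 and 207 FPKM in shGFP cells. DDIT3, which encodes CHOP, was at 147 and 147 FPKM in shMLKL cells, against 49.96 and 56.5 FPKM in shGFP cells. PPP1R15A, which encodes GADD34, the phosphatase subunit that restores translation, was at 204 and 220.1 FPKM in shMLKL cells, against 71.7 and 77.5 FPKM in shGFP cells. These 3 genes, picked for large called differences, had log2 differences of 1.201 ± 0.039, 1.45 ± 0.062 and 1.49 ± 0.055 (SE). ERN1, the sensor IRE1, was at 11.2 and 12.3 FPKM in shMLKL cells, against 5.004 and 5.53 FPKM in shGFP cells. DNAJC3, a co-chaperone of BiP, was at 27.4 and 26.5 FPKM in shMLKL cells, against 13.4 and 13.8 FPKM in shGFP cells. ATF4 itself was at 383 and 381 FPKM in shMLKL cells, against 274 and 285 FPKM in shGFP cells. Amino acid genes under ATF4 were mixed: PSAT1 (−0.42), PHGDH (−0.19) and PSPH (−0.71) of serine synthesis were lower, while CHAC1 (0.57) and TRIB3 (0.48) were higher. Under TBZ 19 members were higher and 8 lower, 18 of them higher in both conditions. In the first experiment 26 of 42 lay above 0, near the share of all genes (55.4%). There HSPA5 lay at 0.18, DDIT3 at −0.03 and PPP1R15A at −0.51.

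Oxidative stress and metal genes were mixed or higher. Metallothioneins, small cysteine-rich proteins that bind zinc and copper and are induced by MTF1, stood out: 4 of 5 measured members of their list were higher and 0 lower, with the same counts with equal medians and under TBZ. MT2A was at 56.99 and 55.8 FPKM in shMLKL cells, against 17.1 and 22.01 FPKM in shGFP cells. MT1E was at 98.4 and 96.7 FPKM in shMLKL cells, against 49.5 and 51.3 FPKM in shGFP cells, and MT1X at 18.2 and 12.8 FPKM in shMLKL cells, against 5.67 and 7.69 FPKM in shGFP cells. SLC30A1, the zinc exporter under the same control, was at 16.99 and 18.8 FPKM in shMLKL cells, against 11.2 and 11.4 FPKM in shGFP cells, while MTF1 did not pass the test, at 3.47 and 3.74 FPKM in shMLKL cells, against 3.86 and 3.31 FPKM in shGFP cells. Metallothionein genes are near-identical copies, so reads may be split between them. The first experiment showed no comparable difference, at 0.01 for MT2A and −0.0073 for MT1E on the log2 scale. NRF2 targets had 15 of 36 members higher and 11 lower, or 20 and 6 with equal medians. FTH1, the ferritin heavy chain, was at 3092 and 3163 FPKM in shMLKL cells, against 1508 and 1577 FPKM in shGFP cells. PRDX1, a peroxiredoxin, was at 154 and 150.2 FPKM in shMLKL cells, against 298 and 297 FPKM in shGFP cells. GCLC (0.75), of glutathione synthesis, and TXNRD1 (0.69), a thioredoxin reductase, rose, while the aldo-keto reductases AKR1B10 (−1.92) and AKR1C3 (−0.74) fell. Heat shock proteins had 6 of 23 members higher and 11 lower, or 7 and 8 with equal medians: HSPB1, the small chaperone HSP27, was at 11.04 and 11.96 FPKM in shMLKL cells, against 33.3 and 34.4 FPKM in shGFP cells, and DNAJB1, an HSP40, at 40.6 and 42.5 FPKM in shMLKL cells, against 19.4 and 21.4 FPKM in shGFP cells. Hypoxia and glycolysis genes split into 12 higher and 13 lower of 36, or 20 and 8 with equal medians, with NDRG1 at 4.74 and 5.22 FPKM in shMLKL cells, against 1.91 and 2.15 FPKM in shGFP cells and MXI1 at 4.75 and 4.82 FPKM in shMLKL cells, against 11.02 and 11.6 FPKM in shGFP cells. SQSTM1, the autophagy receptor p62, was at 209 and 207 FPKM in shMLKL cells, against 108 and 115 FPKM in shGFP cells, and MAP1LC3B, the ATG8 protein LC3B, at 141 and 142 FPKM in shMLKL cells, against 64.3 and 72.5 FPKM in shGFP cells, in a list of autophagy genes of which 10 of 36 were higher and 11 lower, or 17 and 7 with equal medians.

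Secreted proteases and their inhibitors were higher as a group. Colonic epithelium and its tumours secrete kallikreins, trypsins and serpins that act on mucus, matrix and protease-activated receptors. Of 34 measured members 21 were higher (61.8%) and 4 lower (11.8%), with a median of 0.28; with equal medians 25 were higher and 1 lower. KLK6, a kallikrein of high level in this line, was at 363 and 377 FPKM in shMLKL cells, against 143 and 148 FPKM in shGFP cells. KLK11, a related kallikrein, was at 22.5 and 21.9 FPKM in shMLKL cells, against 6.43 and 7.09 FPKM in shGFP cells. PRSS1, cationic trypsinogen, was at 19.6 and 15.9 FPKM in shMLKL cells, against 3.61 and 4.86 FPKM in shGFP cells, and SPINK1, its inhibitor, at 18.3 and 19.2 FPKM in shMLKL cells, against 3.602 and 4.21 FPKM in shGFP cells. Enzyme and inhibitor thus rose together, by 1.85 ± 0.14 and 2.01 ± 0.12 (SE) on the log2 scale; PRSS1 and PRSS3 are close copies among which reads may be split. PLAUR, the urokinase receptor, was at 27.97 and 27.8 FPKM in shMLKL cells, against 14.5 and 12.7 FPKM in shGFP cells, and PLAU, urokinase itself, at 2.31 and 2.29 FPKM in shMLKL cells, against 0.746 and 0.678 FPKM in shGFP cells. Under TBZ the list split evenly, 11 higher and 11 lower, although KLK11 (1.58), KLK6 (1.28) and PRSS1 (2.19) kept their line difference. In the first experiment 16 of 33 lay above 0, against 55.4% of all genes, with PRSS1 at 1.06 and KLK6 at −0.6043.

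Epithelial identity lists went different ways. Junction and keratin genes had 19 of 38 members higher and 9 lower (23.7%), or 23 and 8 with equal medians. KRT80 was at 90.2 and 90.1 FPKM in shMLKL cells, against 31.8 and 35.8 FPKM in shGFP cells. GJB2, a connexin of gap junctions, was lower, at 9.85 and 10.7 FPKM in shMLKL cells, against 24.2 and 24.4 FPKM in shGFP cells, a log2 difference of −1.17. ELF3, an epithelial ETS factor, was at 54.1 and 51.9 FPKM in shMLKL cells, against 24.3 and 25.8 FPKM in shGFP cells. Under TBZ 11 junction and keratin genes were higher and 10 lower, with KRT80 at 0.02 (not called), ELF3 at 0.18 and GJB2 at −0.80. In the first experiment 24 of 35 lay below 0, among them KRT80 (−0.59) and ELF3 (−0.60), while GJB2 lay at 0.47. Intestinal absorptive genes split into 8 higher and 9 lower of 18, or 9 and 4 with equal medians: KRT20, a keratin of mature colonocytes, was at 229 and 234 FPKM in shMLKL cells, against 86.1 and 89.3 FPKM in shGFP cells, whereas VIL1, the microvillar protein villin, was at 7.999 and 7.31 FPKM in shMLKL cells, against 20.6 and 20.02 FPKM in shGFP cells, and HNF4A, a transcription factor of intestinal epithelium, at 3.71 and 3.32 FPKM in shMLKL cells, against 7.71 and 7.53 FPKM in shGFP cells. The line difference of KRT20 turned to −0.15 under TBZ, while VIL1 (−1.23) and HNF4A (−0.41) stayed lower. Goblet and secretory genes had 9 of 21 members higher and 4 lower, or 12 and 3 with equal medians, and 9 were higher in both conditions. LCN2, the iron-binding antibacterial lipocalin, was at 799.9 and 801 FPKM in shMLKL cells, against 285 and 311 FPKM in shGFP cells. WFDC2, a whey acidic protein, was at 14.5 and 15.8 FPKM in shMLKL cells, against 3.58 and 5.74 FPKM in shGFP cells, and PI3, the elastase inhibitor elafin, at 1.07 and 0.337 FPKM in shMLKL cells, against 4.34 and 5.06 FPKM in shGFP cells. Ion transport genes were higher in 10 and lower in 7 of 26 cases, or 14 and 3 with equal medians. The chloride secretion genes differed among themselves: CFTR fell, SLC12A2, the basolateral chloride loader NKCC1, was at 25.7 and 24.6 FPKM in shMLKL cells, against 62.2 and 58.3 FPKM in shGFP cells, and ANO1, the calcium-activated chloride channel, was at 50.8 and 50.9 FPKM in shMLKL cells, against 29.2 and 29.3 FPKM in shGFP cells.

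Adhesion and matrix genes were divided. Integrins and adhesion receptors had 14 of 32 members higher and 13 lower, or 16 and 10 with equal medians, and matrix and mesenchymal genes 9 and 9 of 26, or 10 and 7. TIMP2, a metalloproteinase inhibitor, was at 13.3 and 15.1 FPKM in shMLKL cells, against 3.64 and 3.58 FPKM in shGFP cells. AXL, a receptor tyrosine kinase, was at 5.81 and 6.34 FPKM in shMLKL cells, against 1.98 and 2.03 FPKM in shGFP cells. CD44, the hyaluronan receptor and a WNT target, was lower, at 31.5 and 30.4 FPKM in shMLKL cells, against 67.2 and 64.4 FPKM in shGFP cells, and ITGB8, an integrin that activates TGF-beta, was at 3.14 and 2.97 FPKM in shMLKL cells, against 7.13 and 7.37 FPKM in shGFP cells. The log2 difference of CD44 was −1.06 ± 0.042 (SE).

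WNT targets and stem cell genes were lower in 11 of 20 cases (55.0%) and higher in 4, or 9 and 5 with equal medians. HT-29 cells carry truncated APC, so WNT signalling is constitutive in them. PROM1, the stem cell marker CD133, was at 1.58 and 1.62 FPKM in shMLKL cells, against 6.05 and 6.97 FPKM in shGFP cells. AXIN2, a feedback gene of the pathway, was at 2.18 and 2.02 FPKM in shMLKL cells, against 4.56 and 4.02 FPKM in shGFP cells, and ZNRF3, a ligase that removes WNT receptors, at 2.81 and 2.81 FPKM in shMLKL cells, against 5.66 and 5.49 FPKM in shGFP cells. MYC was at 41.4 and 40.8 FPKM in shMLKL cells, against 55.3 and 56.1 FPKM in shGFP cells. These targets fell while DKK1 rose (1.96) and CTNNB1, β-catenin, was at 64.8 and 65.9 FPKM in shMLKL cells, against 41.7 and 42.8 FPKM in shGFP cells. Among hindgut and HOX transcription factors 15 of 34 were lower and 10 higher, or 11 and 12 with equal medians. HOXA13, the most posterior HOXA gene, was at 3.73 and 3.703 FPKM in shMLKL cells, against 10.7 and 10.3 FPKM in shGFP cells. GATA2 was at 2.496 and 3.23 FPKM in shMLKL cells, against 10.2 and 9.94 FPKM in shGFP cells, and ETS1 at 3.99 and 5.46 FPKM in shMLKL cells, against 1.17 and 1.297 FPKM in shGFP cells. Their line differences were not kept under TBZ: HOXA13 stood at 0.74 and ETS1 at −0.51, and of the whole list 19 were then higher and 5 lower, with 9 opposite calls. BMP and TGF-beta genes had 9 of 22 members lower and 6 higher, or 6 and 8 with equal medians. BMP4, a morphogen of the colonic crypt, was at 34.2 and 32.2 FPKM in shMLKL cells, against 71.9 and 67.4 FPKM in shGFP cells, and ACVR1, a type I receptor, at 16.4 and 16.9 FPKM in shMLKL cells, against 8.26 and 8.27 FPKM in shGFP cells. FGF19, the enterohepatic hormone of bile acid feedback, was at 14.2 and 13.2 FPKM in shMLKL cells, against 2.98 and 3.73 FPKM in shGFP cells, in a list of 6 measured FGF genes with 2 higher and 3 lower. Of 11 NOTCH genes 1 was higher and 4 were lower, or 4 and 1 with equal medians, with the ligand JAG1 at 11.3 and 11.4 FPKM in shMLKL cells, against 5.03 and 5.45 FPKM in shGFP cells.

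Inflammatory genes went both ways. Chemokines and cytokines had 11 of 25 measured members lower (44.0%) and 3 higher, or 9 and 8 with equal medians, a share near that of all genes. CXCL10, a T cell attractant induced by interferon, was at 2.21 and 1.86 FPKM in shMLKL cells, against 10.5 and 11.3 FPKM in shGFP cells. TNFSF10, the death ligand TRAIL, was at 4.95 and 4.36 FPKM in shMLKL cells, against 16.8 and 17.2 FPKM in shGFP cells. CXCL8, the neutrophil attractant, was at 10.6 and 5.94 FPKM in shMLKL cells, against 15.6 and 17.3 FPKM in shGFP cells. CXCL10 and TNFSF10 fell by 1.98 and 1.67 on the log2 scale, and the CXCL8 libraries of shMLKL cells differed by more than those of shGFP cells. CXCL2, a related neutrophil attractant, was higher, at 12.1 and 11.5 FPKM in shMLKL cells, against 4.904 and 5.26 FPKM in shGFP cells. NF-kB feedback and survival targets split into 8 higher and 9 lower of 29, or 10 and 5 with equal medians. NFKBIA, which encodes the inhibitor IκBα, was at 9.88 and 9.08 FPKM in shMLKL cells, against 16.5 and 16.9 FPKM in shGFP cells, and IRAK2, a kinase of Toll-like receptor signalling, at 3.45 and 2.91 FPKM in shMLKL cells, against 8.16 and 8.02 FPKM in shGFP cells. MHC class I presentation genes gave 3 higher and 5 lower of 17, or 7 and 4 with equal medians; PSME2, a proteasome activator subunit, was at 60.8 and 58.7 FPKM in shMLKL cells, against 79.3 and 77.5 FPKM in shGFP cells, and HLA genes were left undescribed because alternate haplotypes share their reads.

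The TBZ libraries are of the same lines and share no library with the DMSO comparison. There 5360 genes (51.7%) differed between the lines, 2144 (20.7%) higher and 3216 (31.0%) lower in shMLKL cells. Of the genes called higher under DMSO, 83.9% lay above 0 under TBZ, against 42.1% of all genes, and of those called lower 85.5% lay below 0. Called in the same direction in both conditions were 1271 genes higher, which is 66.9% of those higher under DMSO and 59.3% of those higher under TBZ, and 2568 lower, which is 55.3% and 79.9%. Opposite calls were made for 183 genes higher under DMSO and 166 lower under DMSO. The line difference itself changed between the conditions for 2306 genes (22.3%), 1512 upwards and 794 downwards. That count was 1684 without shMLKL library 1, 1478 without shMLKL library 2, 1314 without shGFP library 1 and 1452 without shGFP library 2, and with equal medians the split turned to 696 upwards and 1091 downwards. SCEL differed by 2.09 under DMSO and 2.41 under TBZ, and GABARAPL1 by 1.95 and 1.84. AKAP12 turned to −0.92 under TBZ and DKK1 to −0.36.

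In the first experiment most genes called in the second had the opposite sign at rest, while MLKL kept its sign. Mitosis genes lay mostly on the same side in both, with 36 of 47 below 0 in the first experiment. Of 42 stress response genes 26 lay above 0 there, near the share of all genes (55.4%). Cytosolic ribosomal protein genes, whose direction under DMSO depended on the scaling, had 60 of 75 below 0. The first experiment compares 1 shMLKL library with 1 library of parental cells without an shRNA. It therefore has no replicate check and a different control, and neither can be told apart from the experiment. One entry of 89 bp on chromosome 1 took 88.4% of all FPKM in the shMLKL library and 86.3% in the parental library and was left out. Of genes called higher under DMSO that reached 1 FPKM there, 773 of 1769 (43.7%) had the same sign, and of those called lower 1591 of 4224 (37.7%), while 55.4% of all 9324 genes lay above 0 and 44.6% below. Among genes of at least 2-fold, 42 of 141 rises (29.8%) and 76 of 224 falls (33.9%) had the same sign. CFTR was at 10.1 FPKM in shMLKL cells, against 6.52 FPKM in parental cells, and GABRP at 3.76 FPKM in shMLKL cells, against 2.82 FPKM in parental cells, both opposite to the second experiment. Across genes, which are not independent replicates, the line difference under DMSO correlated at r = 0.611 (rho = 0.675) with that under TBZ over 10364 genes and at r = −0.105 (rho = −0.158) with that of the first experiment over 9324 genes. The DMSO and TBZ differences share both lines of cells. With the first experiment only the shMLKL line is common by label, since its control was parental cells. Neither pair shares a library.

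**Figure D5:**
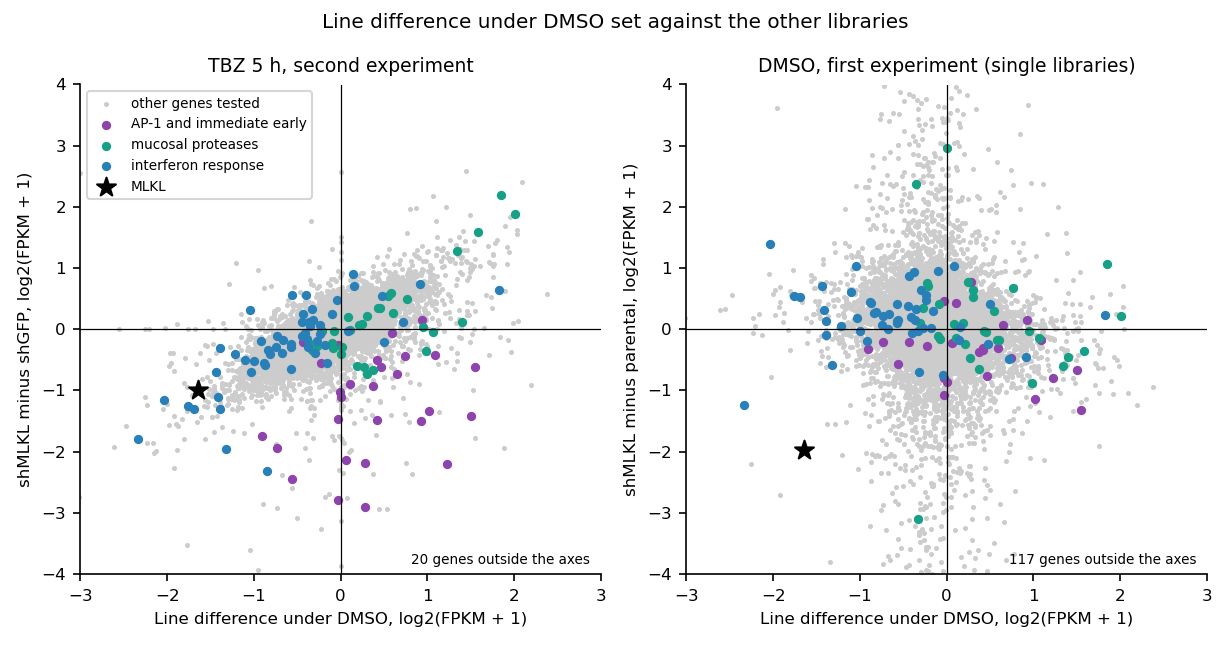
Line difference of each tested gene under DMSO (horizontal axis, shMLKL minus shGFP, log2(FPKM + 1)) against the line difference under TBZ (left panel) and against shMLKL minus parental cells in the single libraries of the first experiment (right panel, genes at 1 FPKM or more there); coloured points are 3 gene lists and the star is MLKL. On the left AP-1 genes lie below 0 on the vertical axis while most interferon genes low under DMSO stay low. On the right MLKL is low on both axes and the cloud of genes leans weakly to opposite signs (r = −0.105).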

How the data were processed

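Poly-A selected RNA was sequenced as 100 nt paired-end reads from stranded TruSeq libraries on a HiSeq2000, per the labels' protocols. The submitters' processing notes name hg19 and the tools STAR 2.4.0f1, TopHat2 2.0.13, GATK and Cufflinks 2.2.1, with no stated role. The authors deposited 1 gene table for the 8 libraries of the second experiment, whose header names no unit and whose values were taken as FPKM, and Cufflinks transcript lists with FPKM for the first. Read counts were not used here, so absolute depth is unknown and no counting interval can be given.

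Of 29437 table lines (19128 symbols), the line of highest mean was kept for each symbol. The 10364 genes whose mean reached 1 FPKM in any of the 4 groups were fitted as log2(FPKM + 1) over all 8 libraries with limma 3.58.1 under R 4.3.3 (a mean for each group, trended empirical Bayes, 4 residual and 3.46 prior degrees of freedom), with two-sided tests and Benjamini-Hochberg adjustment over all genes; calls are at an adjusted p under 0.05. The procedure was tested on simulated data. In the first experiment the FPKM of a gene's RefSeq transcripts were summed, for direction only. Relative depth came from genes at 0.15 FPKM or less.

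The 40 gene lists, 4 marker lists and leading genes were chosen with earlier results of these data known. Named are MLKL; the 12 largest rises and falls among called genes that reach 5 FPKM in a group mean and whose groups do not overlap; up to 4 called genes of largest difference in lists with at least 5 called members; and the necroptosis genes RIPK1, RIPK3, CASP8, FADD, TNFRSF1A, ZBP1 and TLR3. Other genes named with values were chosen after their values were seen. A few genes that this rule picks are not reported here. Alternatives were another pseudocount, other filters, equal medians, quantile normalization, summed lines, a replicate block and each library left out.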

Additional observations from a re-analysis of the deposited data

Results flagged for a closer look

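The line difference was compared between 5 h of TBZ and DMSO for 45 leading and necroptosis genes, by the interaction term of the limma fit at an adjusted p under 0.05. Of these, 14 were listed at 0 in both libraries of a line under DMSO and are left out, since no difference can be given against such values. The line difference changed for 19 of the other 31. Most of them were chosen for a large difference under DMSO, and the same DMSO values enter the interaction, so neither their share nor a move towards 0 is a result about them. Differences are given as TBZ minus DMSO on the log2(FPKM + 1) scale. The line difference of MLKL moved by 0.66, with 1.98 and 2.03 FPKM in shGFP cells after TBZ, against 3.95 and 3.89 FPKM in shGFP cells under DMSO. Among genes higher in shMLKL cells at rest it moved by −1.81 for C3orf52, −3.12 for AKAP12, −1.89 for CDKN2B, −2.33 for DKK1, −0.85 for SDCBP2, −0.57 for TMC5 and −0.47 for ALCAM; SCEL, at 0.32 (adjusted p = 0.0673), did not pass the test. Among epithelial and signalling genes lower at rest it moved by 0.69 for GABRP, 0.90 for CFTR, 0.74 for MYB, 0.78 for NOX1, 1.55 for SOSTDC1 and −0.34 for AKR1B10. Among interferon-related genes low at rest it moved by 0.54 for IFI44L, 0.88 for OAS2, 1.38 for CXCL10 and 0.45 for TLR3. FADD, with no called difference at rest, moved by 0.55. Calls for AKR1B10, ALCAM, FADD, GABRP, IFI44L, MLKL, NOX1 and TLR3 were lost when at least 1 library was left out.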

How the results depend on the processing

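The count of genes called under DMSO stayed between 4951 (of 7241 genes that reach 5 FPKM) and 6850 (of 15505 with any value above 0), against 6539 in the fit reported, and MLKL kept its call and direction under the alternatives in which it was tested, which the filter at 5 FPKM left it out of. Leaving out 1 library gave 5490 to 5778 genes; a library left alone in its group is assumed to vary like the other groups. Scaling moved the split most: with library medians set equal 3116 genes were higher and 2755 lower (282 and 144 at 2-fold or more), and with quantile normalization 3085 were lower (152 at 2-fold or more). A pseudocount of 0.1 gave 651 genes at least 2-fold lower instead of 252, which follows from smaller dampening of low values. The count of genes whose line difference changed with TBZ depended on single libraries: leaving out 1 DMSO library gave 1314 to 1684 genes instead of 2306, and 749 to 1016 instead of 1512 in the upward direction; equal medians gave 696 upward. The share of calls with the same sign in the first experiment was 41.8% with equal medians. Beyond the construction of these alternatives, the cause was not tested. Of 175 genes picked by the naming rule or for the second leading set, 15 lost their call under at least 1 alternative and 0 changed sign. RIPK1, RIPK3 and FADD are among the 175 and had no call to lose. Other genes named with values, such as IFI6, MCM2 and KLK6, were not in this count. Calls lost without a single library were CYB5R3, FARSA, HIST1H4C, HIST2H2AC, MAML1, NIT1, RPL36A, RPL6, SPA17, TM7SF2 and TNFRSF1A. Replicate numbers did not pair the libraries (residual correlations of −0.066 to 0.028 over 6 pairs of groups); with the replicate block 6450 genes were called. Without read counts, the precision of low values cannot be stated.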
